A study of Mus musculus with 18 samples.

Results

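The mitochondrial ribosomal protein genes were followed across all 6 groups of a base editor experiment in mouse leukemia cells. Members were the protein-coding genes whose mouse symbol begins with Mrpl or Mrps followed by a digit. Of 56748 gene identifiers in the count table, 78 were members, after 5 pseudogenes with at most 13 counts in any library were left out. Of the 78, 77 passed the filter on low counts, and these are among 14985 genes tested. The cells were RN2, a line of mouse acute myeloid leukemia that carries the MLL-AF9 fusion and an oncogenic Nras. Their genotype is labelled WT, and they were transduced with 1 of 4 constructs and sorted on day 5. Gene expression was measured by directional sequencing of polyA RNA.

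The groups, of 3 libraries each, were intact BE with rapamycin, intact BE with vehicle, seBE with rapamycin, seBE with vehicle, the catalytic mutant, and nCas9. Intact BE is a base editor, a Cas9 nickase joined to an evolved APOBEC1 cytidine deaminase, here called evoA1. seBE is an editor whose activity is switched by rapamycin. The catalytic mutant carries an inactive evoA1, and nCas9 is the nickase without a deaminase. Rapamycin was given at 1 nM for 24 h before the sort, and it also inhibits mTORC1, a kinase complex that drives cell growth. The treatment label of the nCas9 and catalytic mutant libraries says vehicle, although their titles name none. All groups are lentivirally transduced cells of 1 line, and untransduced cells were not analysed here. Titles name biological replicates and do not say whether these were separate cultures, so p-values measure the spread between these libraries.

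Mitochondria keep their own ribosomes, which translate the messenger RNAs of the mitochondrial genome into membrane subunits of the respiratory chain and of ATP synthase. The ribosomal RNAs of these particles are transcribed inside the organelle, while every protein component is encoded in the nucleus, made in the cytosol and imported. Some of the proteins descend from bacterial ribosomal proteins, others exist only in mitochondria. In mammalian cells the promoters of nuclear genes for mitochondrial proteins often carry sites for GABP, an ETS-family factor also called NRF2, for NRF1 and for YY1.

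By their known place in the particle, 51 members belong to the large subunit and 26 to the small one. Mrps36, named for the small subunit, is now known as a part of 2-oxoglutarate dehydrogenase, and Mrps30 and Mrps18a sit in the large subunit in spite of their names. Of the ribosomal members, 46 have a bacterial counterpart and 31 are specific to mitochondria. The members lie on 17 chromosomes, and their annotated transcripts have a median length of 1302 bases, from 418 to 7300.

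The promoters of 4 members are shown, those with a RefSeq window that were lower in intact BE than in nCas9 and in the catalytic mutant and higher in seBE than in intact BE with vehicle. The windows, 250 bases before to 50 after the annotated start, are RefSeq sequences of build GRCm38.p6 on the plus strand, 5′ to 3′. They lie at chr11:120484387-120484686 (Mrpl12), chr11:115603890-115604189 (Mrps7), chr17:46110754-46111053 (Mrps18a) and chr2:130563507-130563806 (Mrps26). Capitals mark exact matches, on either strand, to CCGGAAG (ETS), CATGCGC (part of the NRF1 motif), AAGATGG (YY1), CACGTG (E-box) or CCAAT.
Mrpl12: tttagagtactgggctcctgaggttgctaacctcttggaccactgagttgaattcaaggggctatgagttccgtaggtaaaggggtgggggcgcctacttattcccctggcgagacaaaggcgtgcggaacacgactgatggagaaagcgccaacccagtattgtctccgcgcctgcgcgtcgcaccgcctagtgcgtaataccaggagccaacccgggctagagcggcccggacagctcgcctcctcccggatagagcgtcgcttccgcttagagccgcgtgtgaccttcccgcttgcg
Mrps7: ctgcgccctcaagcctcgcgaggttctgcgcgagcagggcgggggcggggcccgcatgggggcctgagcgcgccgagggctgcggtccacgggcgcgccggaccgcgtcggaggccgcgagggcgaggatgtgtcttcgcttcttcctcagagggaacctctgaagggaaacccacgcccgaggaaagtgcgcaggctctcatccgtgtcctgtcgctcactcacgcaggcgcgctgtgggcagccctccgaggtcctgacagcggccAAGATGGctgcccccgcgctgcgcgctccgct
Mrps18a: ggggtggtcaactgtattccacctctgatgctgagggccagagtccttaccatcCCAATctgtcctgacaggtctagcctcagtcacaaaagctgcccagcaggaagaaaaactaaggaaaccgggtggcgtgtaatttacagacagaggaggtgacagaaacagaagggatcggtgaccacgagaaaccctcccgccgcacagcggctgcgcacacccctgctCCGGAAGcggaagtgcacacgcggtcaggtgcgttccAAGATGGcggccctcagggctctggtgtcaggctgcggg
Mrps26: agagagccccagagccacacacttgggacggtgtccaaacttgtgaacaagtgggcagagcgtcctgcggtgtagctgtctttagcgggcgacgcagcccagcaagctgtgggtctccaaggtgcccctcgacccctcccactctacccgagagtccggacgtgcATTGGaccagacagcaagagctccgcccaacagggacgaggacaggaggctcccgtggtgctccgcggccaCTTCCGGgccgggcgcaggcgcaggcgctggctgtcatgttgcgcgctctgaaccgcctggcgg
The Mrps18a window held an ETS, a YY1 and a CCAAT match, the Mrps26 window an ETS and a CCAAT match, and the Mrps7 window a YY1 match. None of the searched strings was present in the Mrpl12 window.

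RefSeq windows were found for 69 of the 78 members. The ETS string was present in 26 of the 69 members, 37.7%, against 9.9% of all 27025 genes with a window. YY1 matches were present in 13 members, 18.8%, against 7.3% of all genes, and matches to the NRF1 part in 8, 11.6%, against 4.4%. The E-box was present in 5 members, 7.2%, against 8.1%, and CCAAT in 27, 39.1%, against 41.1%. A match is a run of letters and not evidence of binding. The set of all genes was not limited to expressed genes, so these shares do not show a trait particular to the members.

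Mrpl53, a mitochondria-specific large-subunit protein, had 0 counts in all 18 libraries, which allows up to 0.129 CPM in the deepest library and 0.217 CPM in the shallowest. CPM, the usual depth-scaled counts, are given after edgeR's TMM scaling. In the GENCODE annotation 88% of the exon bases of Mrpl53 are shared with Gm42688 on the same strand, and how the authors treated reads in shared bases is not given in the sources used here. Among the other members, Mrps34 shares 37% of its exon bases with Nme3 on its own strand, and its opposite strand overlaps Mapk8ip3. In all, 5 members share at least 10% of their exon bases with a gene on the same strand and 14 with one on the opposite strand. Their counts are less certain for that reason.

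Per kilobase of annotated transcript, Mrpl33 had the highest mean level over the 18 libraries at 185 CPM per kb, followed by Mrps21 at 114 and Mrpl18 at 112 CPM per kb. Mrpl33 and Mrpl18 are large-subunit proteins and Mrps21 a small-subunit protein, each with a bacterial counterpart. The lowest were Mrps25 at 8.52, Mrps35 at 9.73 and Mrpl35 at 9.84 CPM per kb. This order rests on the annotated lengths, and the transcript used was over 4 times as long as the coding part for 18 members. Mrps25, for example, has an annotated transcript of 6073 bases and a coding part of 513. It also shares 69.8% of its exon bases with Nr2c2 on the opposite strand, and the strand setting of the counts is not given.

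Taken as a sum, the members were lowest in intact BE cells, and lowest of all in those given rapamycin. The 77 tested members summed to 3510 ± 105 CPM in intact BE with rapamycin, 3861 ± 41.9 in intact BE with vehicle, 4040 ± 32.9 in seBE with rapamycin, 4225 ± 94.2 in seBE with vehicle, 4218 ± 176 in the catalytic mutant and 4347 ± 107 in nCas9 (SD, n = 3 libraries each). The 3 libraries of intact BE with rapamycin, at 3428 to 3628 CPM, lay below every library of the other groups. Those of intact BE with vehicle, at 3813 to 3891, lay below all seBE, mutant and nCas9 libraries, the lowest of which had 4008. Members made up 0.344% of all counts in intact BE with rapamycin and 0.386% with vehicle, against 0.437% in nCas9. In bulk RNA, fewer cells expressing a gene and less of its RNA per cell cannot be told apart.

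**Figure D1:**
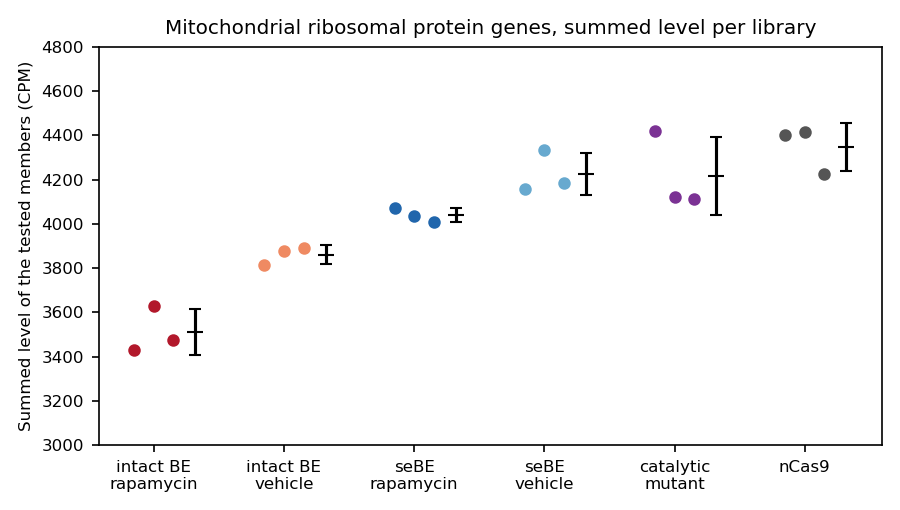
Summed level of the 77 tested members in each of the 18 libraries (CPM, points; the axis does not start at 0), with the mean and SD of 3 libraries beside them. Both intact BE groups sit below the other 4 groups, with rapamycin at 3428 to 3628 CPM and vehicle at 3813 to 3891 CPM.

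The low sum was spread over most members. Intact BE with rapamycin had the lowest group mean for 63 of the 77 members, against 6 for intact BE with vehicle, 4 for the catalytic mutant, 3 for nCas9 and 1 for seBE with vehicle. The highest mean was in nCas9 for 32 members, in the catalytic mutant for 20, in seBE with vehicle for 16, in intact BE with vehicle for 8 and in seBE with rapamycin for 1. In the 3 libraries of intact BE with rapamycin only 7 to 9 of 77 members lay above their own mean over all libraries, and in intact BE with vehicle 27 to 30 did. In nCas9 libraries 51 to 56 members did. These counts were made for the members only, and no share of all genes stands beside them.

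**Figure D2:**
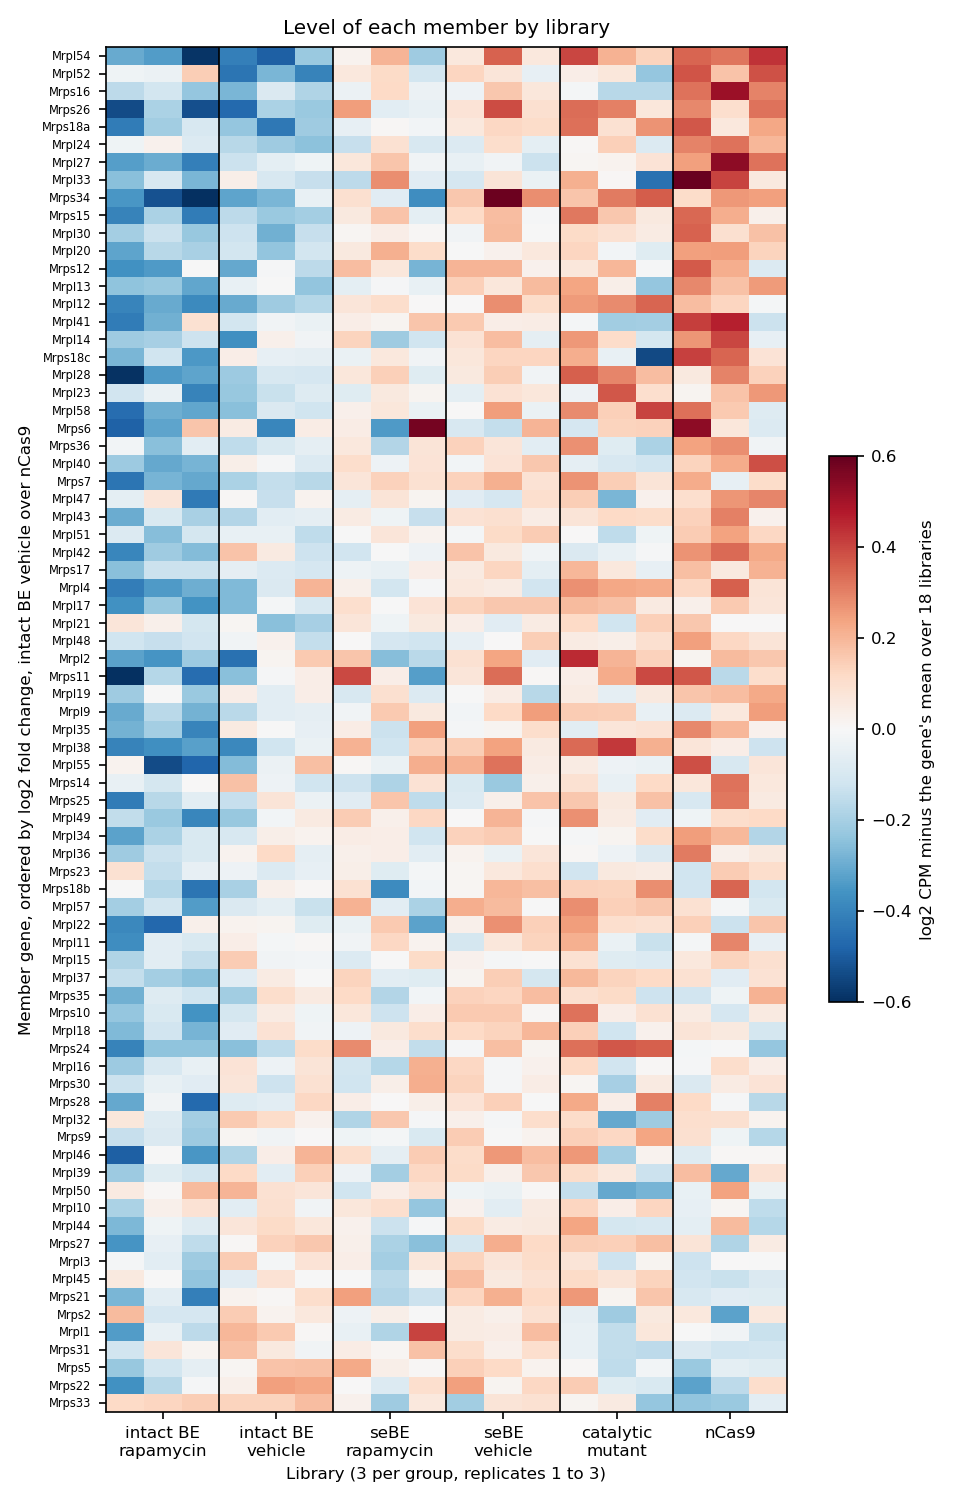
Level of each tested member in each library as log2 CPM minus the gene's own mean over 18 libraries (red above, blue below), with 3 libraries per group and genes ordered by their fold change in intact BE with vehicle over nCas9. The 3 columns of intact BE with rapamycin are blue for nearly all genes, with 7 to 9 of 77 above their mean.

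Library totals ran from 13835979 to 23284932 counts, and the biological coefficient of variation of the fit was 13.3%. The 8 myeloid leukemia markers listed for RN2 cells were present in all libraries, from 14.1 CPM for the lowest value of Csf1r to 460 CPM for the highest of Ptprc. Erythroid, T cell, B cell and stromal markers stayed at or under 1.56 CPM. Of 4 megakaryocyte markers Itga2b reached 16.3 CPM, while Pf4, Gp1ba and Ppbp stayed at or under 0.687 CPM. Of 3 mast cell markers Cpa3 reached 52.6 CPM and Mcpt8 27.7 CPM, and Tpsb2 was at 0 CPM in all libraries. Transcripts of the mitochondrial genome made up 1.99 to 2.25% of counts in intact BE with rapamycin, 1.78 to 2.02% in intact BE with vehicle, 2.99 to 4.61% in seBE with rapamycin, 2.66 to 4.10% in seBE with vehicle, 3.73 to 5.47% in the catalytic mutant and 4.43 to 5.54% in nCas9. That share, like the members' sum, was lower in the intact BE groups than in all others. In 1 alternative the scaling factors were computed without these transcripts and the most abundant gene. None of the 38 named member calls counted in the closing section was lost under it. Any further part of that share in the results was not tested. Short transcripts as a whole were also lower in intact BE: genes shorter than the members' median had a median log2 fold change of -0.27 in intact BE with vehicle over nCas9, and longer ones 0.02.

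The comparisons share libraries: nCas9 and intact BE with vehicle each serve in several, so they are not independent of each other.

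With vehicle, intact BE cells had less RNA of many mitoribosomal genes than nCas9 cells. Of 77 members, 21 fell and 1 rose by edgeR's quasi-likelihood test at a Benjamini-Hochberg adjusted p of 0.05. Among all genes tested, 9.83% fell and 13.1% rose. The members' median log2 fold change was -0.17, against -0.04 for all genes. Below 0 were 58 of 77 members, against 53.5% of all genes. Without intact BE replicate 1 the median was -0.11, and leaving out each other library gave -0.19 to -0.15. In the large subunit 16 of 50 passed, all lower, with a median of -0.19, and in the small subunit 5 of 26 fell and 1 rose, with a median of -0.10. Falls were found among members with a bacterial counterpart, 11 of 46, and among those specific to mitochondria, 10 of 30. DESeq2 called 23 lower and 2 higher. Shares of all genes called, here and below, belong to the unaltered edgeR fit and not to DESeq2 or another alternative.

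Mrpl54, a mitochondria-specific protein of the large subunit, had the smallest adjusted p. It stood at 44.5, 42.0 and 50.7 CPM in the 3 intact BE libraries with vehicle, against 75.4, 73.8 and 80.0 CPM in nCas9. No intact BE library reached the lowest nCas9 library, and the log2 fold change was -0.74 ± 0.11, adjusted p = 8.24e-06 (SE, edgeR). Mrpl24, the counterpart of a bacterial protein that starts assembly of the large subunit, had 101, 97.4 and 95.4 CPM in intact BE against 139, 142 and 129.6 in nCas9. All 3 intact BE values lay below the nCas9 values, with a log2 fold change of -0.48 ± 0.080, adjusted p = 3.84e-05 by edgeR. Mrps16, a small-subunit protein mutated in a human mitochondrial disease, had 36.5, 41.6 and 39.0 CPM in intact BE against 55.3, 63.04 and 54.2 in nCas9. The groups again stood apart, at -0.56 ± 0.098, adjusted p = 7.5e-05 by edgeR.

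Mrpl52, specific to mitochondria and in the large subunit, had 16.3, 18.2 and 16.7 CPM in intact BE with vehicle against 28.7, 24.8 and 28.8 CPM in nCas9, a log2 fold change of -0.69 ± 0.13, adjusted p = 0.000171 by edgeR. Mrps26, a mitochondria-specific small-subunit protein, had 45.9, 55.5 and 54.3 CPM in intact BE against 77.5, 67.9 and 79.5 CPM in nCas9. Every intact BE library was below every nCas9 library, and the log2 fold change was -0.53 ± 0.11, adjusted p = 0.00052 by edgeR. Mrps18a had 37.3, 32.5 and 37.7 CPM in intact BE against 56.6, 45.7 and 51.3 CPM in nCas9, again with no overlap, and a log2 fold change of -0.52 ± 0.10, adjusted p = 0.000406 by edgeR. Its relatives Mrps18b and Mrps18c, which sit in the small subunit, did not pass the test. They averaged 30.9 ± 2.61 and 38.7 ± 1.48 CPM in intact BE, against 33.3 ± 6.41 and 48.0 ± 5.64 CPM in nCas9 (SD, n = 3).

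Mrpl12, the stalk protein of the large subunit that also binds the mitochondrial RNA polymerase, had 107, 113 and 117 CPM in intact BE with vehicle against 149.5, 144 and 130.3 CPM in nCas9, a log2 fold change of -0.33 ± 0.077, adjusted p = 0.00176 by edgeR. Mrpl58, a peptidyl-tRNA hydrolase that rescues stalled mitochondrial ribosomes, had 34.6, 38.7 and 37.8 CPM in intact BE against 51.6, 45.9 and 39.0 CPM in nCas9. One nCas9 library sat close to the intact BE values, and the log2 fold change was -0.30 ± 0.11, adjusted p = 0.0461 by edgeR. The Mrpl58 call was lost without intact BE replicate 1, 2 or 3 or without nCas9 replicate 1 or 2, at adjusted p of 0.205, 0.0741, 0.0941, 0.295 and 0.105. The 1 member that rose was Mrps33, a mitochondria-specific small-subunit protein, with 36.9, 36.9 and 38.3 CPM in intact BE against 28.6, 28.9 and 32.3 CPM in nCas9. Its log2 fold change was 0.32 ± 0.11, adjusted p = 0.0344 by edgeR, and the call was lost without any 1 of intact BE replicates 1 to 3 and nCas9 replicates 1 and 2, at adjusted p of 0.0691 to 0.11. Without nCas9 replicate 3 the count of higher members was 2.

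The other members that fell by edgeR were Mrpl30, Mrpl20, Mrpl27, Mrps15, Mrpl13, Mrps34, Mrpl28, Mrpl51, Mrps7, Mrpl43, Mrpl40, Mrpl33 and Mrpl42, with log2 fold changes between -0.44 for Mrpl27 and -0.24 for Mrpl42. Among members followed for their known roles, Mrps12, a protein of the decoding centre, averaged 24.8 ± 2.55 CPM in intact BE against 31.2 ± 4.85 in nCas9 and did not pass the test. Mrpl3, next to the peptidyl transferase centre, averaged 78.1 ± 4.48 against 72.0 ± 3.58 CPM, and Mrps27, a pentatricopeptide protein, 42.8 ± 2.41 against 39.4 ± 3.75 CPM. Mrps30 averaged 56.3 ± 4.57 CPM in intact BE against 56.3 ± 3.47 CPM in nCas9 (SD, n = 3 each). Mrpl41, also linked to cell death, had 39.8, 42.3 and 41.7 CPM in the intact BE libraries against 57.2, 59.2 and 39.2 CPM in nCas9. None of these 5 passed.

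**Figure D3:**
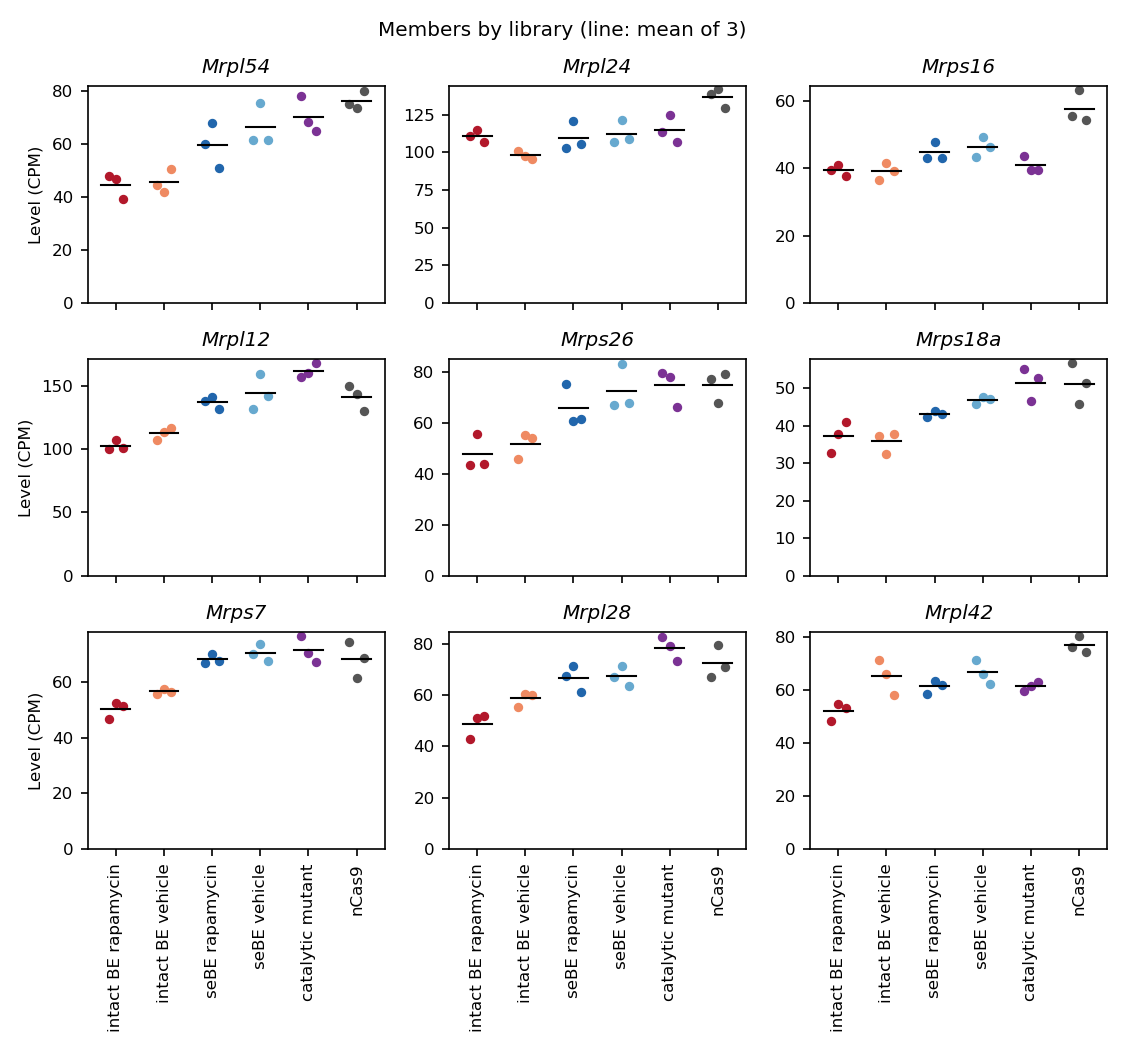
Levels of 9 members in each of the 18 libraries (CPM, axes from 0; points are libraries, lines the mean of 3). For Mrpl54 the 3 intact BE libraries with vehicle sit at 42.0 to 50.7 CPM and the 3 nCas9 libraries at 73.8 to 80.0 CPM.

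Transcript length moved with the fold changes in this comparison. Members shorter than the members' median length had a median log2 fold change of -0.26 and longer ones -0.10, against -0.27 and 0.02 for all genes split at the same length. With each library's trend on transcript length and GC content removed, 15 members were lower and 4 higher in intact BE, with a median of -0.06. With coding length in place of transcript length, an alternative added after seeing the data, 18 were lower and 2 higher, with a median of -0.08. No share of all genes stands beside counts made with a trend removed, here and below. They therefore do not show whether members passed more often than other genes. Mrpl54, Mrpl24, Mrps16 and Mrps26 kept their call under both removals. Mrpl52, Mrps18a and Mrpl12 lost it with transcript length removed, at adjusted p of 0.191, 0.119 and 0.204, and Mrpl12 also with coding length removed, at 0.0893.

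**Figure D4:**
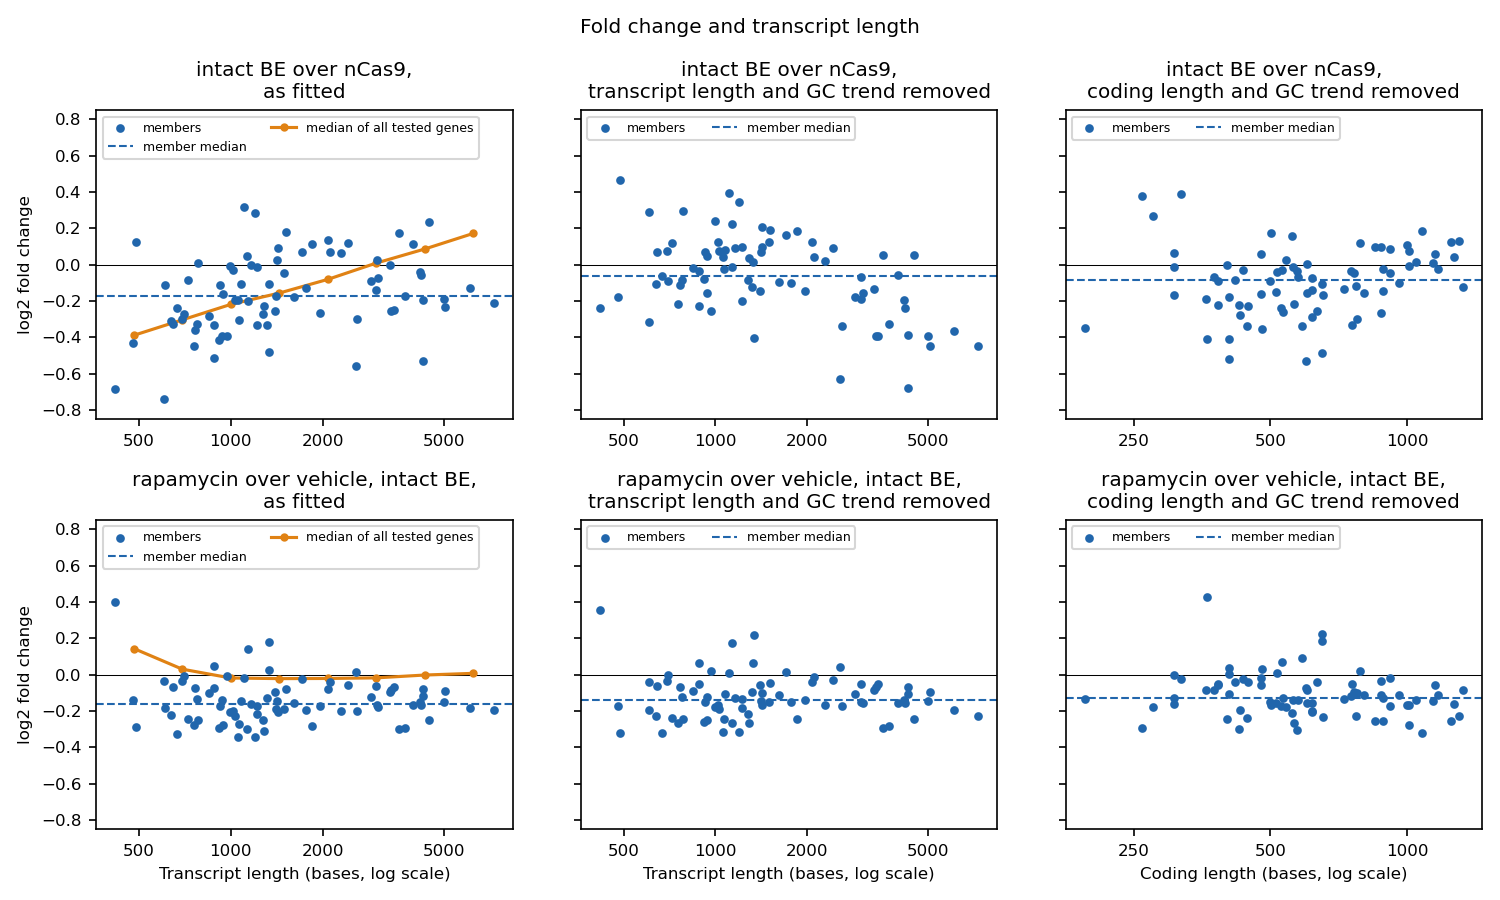
Log2 fold change of each tested member against transcript or coding length (bases, log scale) for intact BE over nCas9 with vehicle (top) and rapamycin over vehicle in intact BE (bottom), as fitted and with the trend removed; orange, in the left panels, marks the median of all tested genes per length bin. The members' median, dashed, moved from -0.17 to -0.06 and -0.08 in the top row and from -0.16 to -0.14 and -0.13 in the bottom row.

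The deaminase itself was addressed by setting intact BE with vehicle against the catalytic mutant. Of 77 members 15 fell and 1 rose in intact BE, where 9.33% of all genes fell and 11.6% rose. The median log2 fold change of members was -0.11, against -0.03 for all genes. Below 0 were 58 of 77 members, against 52.5% of all genes. Members shorter than the members' median length had a median of -0.16 and longer ones -0.05. All genes split at the same length had -0.22 and 0.02, so short members were not lower in the median than short genes as a whole. In the large subunit 10 of 50 fell and 1 rose, and in the small subunit 5 of 26 fell. Members with a bacterial counterpart fell in 8 of 46 cases and mitochondria-specific ones in 7 of 30.

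Mrpl12 led this comparison, with 107, 113 and 117 CPM in intact BE against 157, 160.2 and 168 CPM in the catalytic mutant, a log2 fold change of -0.53 ± 0.077, adjusted p = 3.01e-05 by edgeR. Mrps26 had 79.9, 78.3 and 66.6 CPM in the mutant and a log2 fold change of -0.53 ± 0.11, adjusted p = 0.000743 for intact BE over it. Mrpl12 and Mrps26 kept their calls under both length trend removals. Mrpl54, with 78.1, 68.4 and 64.9 CPM in the mutant, had a log2 fold change of -0.62 ± 0.11, adjusted p = 0.000154, and Mrps18a, with 55.0, 46.6 and 52.7 CPM, of -0.52 ± 0.10, adjusted p = 0.000564. Mrpl28, counterpart of a bacterial large-subunit protein, had 55.4, 60.4 and 60.1 CPM in intact BE against 82.6, 79.0 and 73.4 in the mutant, a log2 fold change of -0.42 ± 0.092, adjusted p = 0.0013 by edgeR. Mrpl38, a mitochondria-specific protein of the same subunit, had 26.1, 31.5 and 33.3 CPM against 43.4, 46.0 and 39.7, at -0.51 ± 0.11, adjusted p = 0.00153 by edgeR. The calls of Mrpl54, Mrps18a, Mrpl28 and Mrpl38 were lost with the transcript length trend removed, at adjusted p of 0.359, 0.159, 0.652 and 0.458, and with coding length at 0.185, 0.0735, 0.469 and 0.389.

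Mrpl58 fell to 34.6, 38.7 and 37.8 CPM in intact BE, against 50.1, 45.4 and 54.4 CPM in the mutant, at -0.43 ± 0.11, adjusted p = 0.00433 by edgeR. The other members that fell were Mrps34, Mrps15, Mrps7, Mrps24, Mrpl17, Mrpl30, Mrpl24 and Mrpl57. Mrpl50, of the large subunit, was the 1 member that rose, with 54.0, 49.99 and 49.4 CPM in intact BE against 42.4, 37.9 and 38.7 in the mutant and a log2 fold change of 0.37 ± 0.099, adjusted p = 0.00686 by edgeR. Without intact BE replicate 1 its adjusted p was 0.0559 and no member rose, without mutant replicate 1 the count was 2, and the call was lost with the length trend removed, at 0.269.

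The catalytic mutant and nCas9 both lack an active deaminase. Of 77 members 4 were lower and 1 higher in the mutant, where 2.06% of all genes were lower and 2.24% higher, and the members' median was -0.008. That median had no stable sign: it ran from -0.045 without mutant replicate 1 to 0.01 without nCas9 replicate 1, and it was 0.01 with the transcript length trend removed. Mrps16 fell to 43.7, 39.4 and 39.3 CPM in the mutant, against 55.3, 63.04 and 54.2 CPM in nCas9, at a log2 fold change of -0.50 ± 0.098, adjusted p = 0.00346 by edgeR. Mrps16 was called under both trend removals and without each library. Mrpl42, specific to mitochondria, had 59.6, 61.3 and 62.9 CPM in the mutant against 76.2, 80.2 and 74.0 CPM in nCas9, at -0.33 ± 0.088, adjusted p = 0.027 by edgeR. Mrpl40 was lower at -0.34 ± 0.094, adjusted p = 0.0291, and Mrpl27, whose bacterial counterpart lies at the peptidyl transferase centre, at -0.34 ± 0.10, adjusted p = 0.0492, both by edgeR.

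The small-subunit gene Mrps24 was higher in the catalytic mutant, with 40.0, 41.3 and 40.9 CPM against 31.6, 31.8 and 27.1 CPM in nCas9, at 0.44 ± 0.12, adjusted p = 0.0291 by edgeR. Mrps24 shares 15.4% of its exon bases with Urgcp on the same strand. The call was lost without mutant replicate 1, 2 or 3, at adjusted p of 0.0663, 0.0692 and 0.0703, and without nCas9 replicate 2 or 3, at 0.0655 and 0.0973. Mrpl42, Mrpl40 and Mrpl27 each lost the call without at least 1 library as well. For Mrpl42 the adjusted p was 0.101, 0.078 and 0.0571 without mutant replicates 1, 2 and 3, and 0.0722 and 0.135 without nCas9 replicates 1 and 2. For Mrpl40 it was 0.0693, 0.0873 and 0.0934 without mutant replicates 1, 2 and 3, and 0.0887 and 0.128 without nCas9 replicates 2 and 3. For Mrpl27 it was 0.142, 0.135 and 0.0913 without mutant replicates 1, 2 and 3, and 0.0523, 0.274 and 0.0583 without nCas9 replicates 1, 2 and 3. The count of lower members dropped to 2 without nCas9 replicate 1 and to 1 without nCas9 replicate 2, mutant replicate 2 or mutant replicate 3. With the transcript length trend removed Mrpl42, Mrpl27 and Mrpl40 had adjusted p of 0.58, 0.259 and 0.0501.

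For seBE with vehicle, the switchable editor without its inducer, 2 of 77 members passed against nCas9, both lower in seBE, where 1.93% of all genes were lower and 2.64% higher, with a members' median of -0.03. The median was -0.07 without seBE replicate 2, between -0.05 and -0.01 without each other library, and 0.015 with the transcript length trend removed. Mrpl27 had 35.5, 36.0 and 33.5 CPM in seBE against 43.4, 53.1 and 45.9 CPM in nCas9, at -0.44 ± 0.10, adjusted p = 0.00968 by edgeR. Mrpl24 had 107, 122 and 109 CPM against 139, 142 and 129.6 CPM, at -0.28 ± 0.079, adjusted p = 0.0325 by edgeR. Without seBE replicate 1 or 3 or nCas9 replicate 2 the adjusted p of Mrpl27 was 0.0625, 0.0716 and 0.103, and that of Mrpl24 was 0.224, 0.151 and 0.156. Mrpl24 also missed the threshold without nCas9 replicate 1, at 0.114. The count of lower members was 0 by edgeR without seBE replicate 1 or 3 or nCas9 replicate 2, 1 without nCas9 replicate 1 and 4 without nCas9 replicate 3. With the transcript length trend removed the adjusted p of Mrpl24 was 0.054.

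Set directly against intact BE, both with vehicle, seBE cells had more RNA of several members. Of 77 members 7 passed, all higher, where 1.68% of all genes were higher and 2.32% lower. The median log2 fold change was 0.13, against 0.008 for all genes. Above 0 were 64 of 77 members, against 7687 of all 14985 genes. Members shorter than the members' median length had a median of 0.152 and longer ones 0.059. All genes split at the same length had 0.145 and -0.019, so short members were close in the median to short genes as a whole. Mrpl54 had 61.7, 75.7 and 61.7 CPM in seBE against 44.5, 42.0 and 50.7 CPM in intact BE, at 0.54 ± 0.11, adjusted p = 0.00517 by edgeR, and Mrpl12 had 132, 159.5 and 142 CPM against 107, 113 and 117 CPM, at 0.36 ± 0.077, adjusted p = 0.00778 by edgeR. In both genes every seBE library lay above every intact BE library. Mrps26 had 67.1, 83.3 and 67.8 CPM against 45.9, 55.5 and 54.3 CPM, at 0.49 ± 0.11, adjusted p = 0.012 by edgeR. Mrps34, which in mice is needed for a stable small subunit, had 42.5, 57.1 and 46.1 CPM against 30.5, 31.4 and 36.9 CPM, at 0.56 ± 0.12, adjusted p = 0.00898 by edgeR. Mrps18a, at 0.38, adjusted p = 0.0318, Mrps7, whose bacterial counterpart binds early in assembly of the small subunit, at 0.31, adjusted p = 0.0346, and Mrpl17, at 0.27, adjusted p = 0.0489, were the others.

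These calls depended on single libraries. Without seBE replicate 2, the library with the highest Mrps34, Mrpl54 and Mrps26 of the 3, none of the 77 members passed, and without intact BE replicate 1 only 1 did. Without seBE replicate 2 the adjusted p by edgeR was 0.104 for Mrpl54, 0.147 for Mrpl12, 0.186 for Mrps34, 0.199 for Mrps26, 0.214 for Mrps18a and 0.264 for Mrps7. Without intact BE replicate 1 it was 0.086 for Mrpl12, 0.0923 for Mrps34, 0.127 for Mrps26, 0.116 for Mrps18a and 0.181 for Mrps7. Without seBE replicate 1, intact BE replicate 2 or intact BE replicate 3 the count was 4 each. Removing the transcript length trend left 3 higher with a median of 0.07, and the coding length trend 2 with a median of 0.10. Among the leading genes Mrpl54, Mrpl12, Mrps34, Mrps18a and Mrps7 were lost with the transcript length trend removed, at adjusted p of 0.342, 0.103, 0.217, 0.493 and 0.233. They were lost as well with the coding length trend removed, at 0.193, 0.0792, 0.121, 0.287 and 0.258, while Mrps26 passed under both. For Mrpl54 the log2 fold change was 0.19 with the transcript length trend removed. Mrps18a missed the threshold without any 1 of the 6 libraries, at 0.0504 to 0.214, and Mrps7 without any but seBE replicate 3, at 0.0726 to 0.264. The members' median without 1 library stayed between 0.10 and 0.14.

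**Figure D5:**
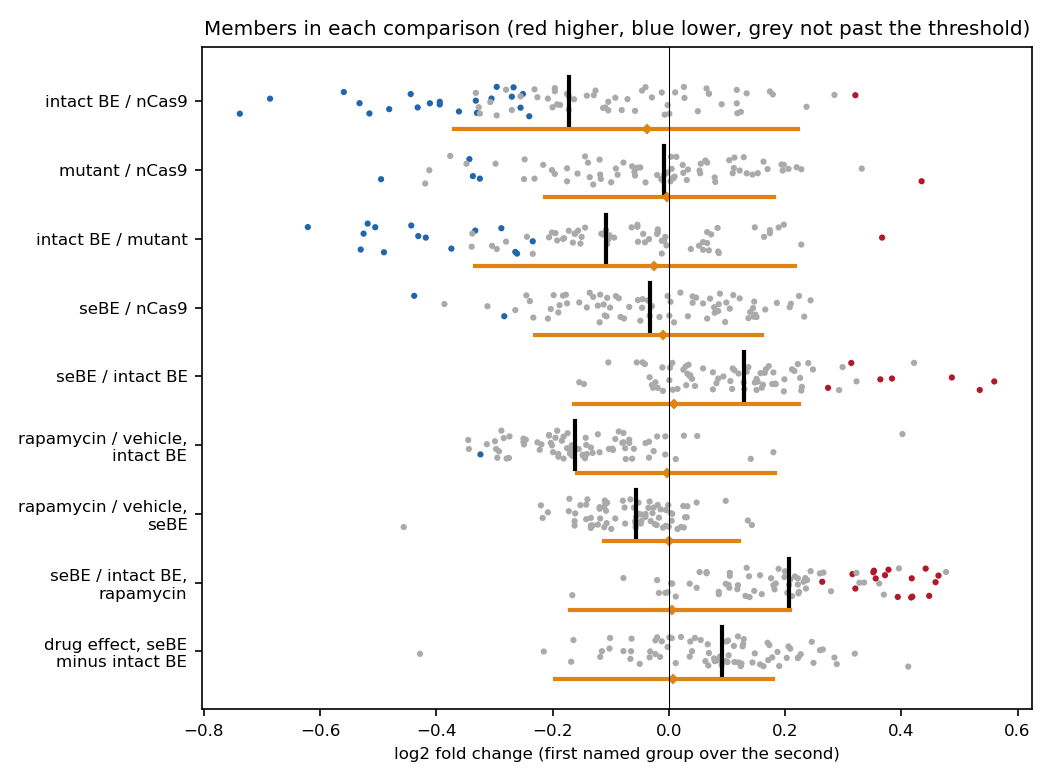
Log2 fold change of the 77 tested members in each comparison, 1 point per gene, red higher and blue lower by edgeR, with the members' median as a black bar and the interquartile range of all tested genes as an orange line with their median. The members' median was -0.17 for intact BE over nCas9, -0.16 for rapamycin over vehicle in intact BE and 0.21 for seBE over intact BE with rapamycin.

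Most members had slightly lower estimates with rapamycin than with vehicle in intact BE cells, and 1 passed the test. That member fell, where 1.34% of all genes fell and 1.98% rose. The members' median log2 fold change was -0.16, against -0.004 for all genes. Below 0 were 71 of 77 members, against 50.6% of all genes. By edgeR 23 members had an unadjusted p under 0.05, a count that was not made over all genes. The large and small subunits had medians of -0.17 and -0.15. By transcript length the median was -0.18 for members under the median length and -0.15 for the others, -0.14 with the transcript length trend removed and -0.13 with the coding length trend removed. Leaving out 1 library gave medians of -0.19 to -0.13.

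Mrpl42 was the member that passed. It fell to 48.2, 54.6 and 52.9 CPM in intact BE with rapamycin, against 71.2, 65.7 and 58.1 CPM with vehicle, at -0.32 ± 0.088, adjusted p = 0.0295 by edgeR. All 3 rapamycin libraries lay below all 3 vehicle libraries. The call was lost without rapamycin replicate 1 or 3, at adjusted p of 0.215 and 0.0617, and without vehicle replicate 1 or 2, at 0.205 and 0.127. Without rapamycin replicate 1 or 3 or vehicle replicate 2 the count was 0. Mrpl28 had 42.7, 50.9 and 51.8 CPM with rapamycin against 55.4, 60.4 and 60.1 CPM with vehicle, at -0.27 ± 0.093, adjusted p = 0.104 by edgeR, which did not pass. Mrpl52 stood at the other end, with 21.7, 21.5 and 24.4 CPM with rapamycin against 16.3, 18.2 and 16.7 CPM with vehicle. Its log2 fold change of 0.40 ± 0.13, adjusted p = 0.0799 did not pass either by edgeR, while DESeq2 called 1 member higher and 1 lower.

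In seBE cells no member passed the test for rapamycin over vehicle, and 0.0% of all genes were called higher and 0.0% lower. Among members 1 had an unadjusted p under 0.05, which was not counted over all genes, and DESeq2 called none. The members' median was -0.06, with 62 of 77 below 0 against 49.8% of all genes. Mrps34 was that member, with 40.7, 36.3 and 29.4 CPM in seBE with rapamycin against 42.5, 57.1 and 46.1 CPM with vehicle, at -0.46 ± 0.12, adjusted p = 0.999 by edgeR. In seBE, rapamycin both switches the editor and reaches mTORC1, and the effects cannot be told apart.

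The difference between the drug effects, seBE minus intact BE, passed for no member by edgeR or DESeq2. Of the members 3 had an unadjusted p under 0.05, which was not counted over all genes. Of all genes 0.0734% were higher and 0.113% lower in this test. The members' median difference was 0.09, with 56 of 77 above 0, against 7658 of all 14985 genes. Among members the smallest p was that of Mrpl27, whose difference was 0.41 ± 0.14, adjusted p = 0.411 by edgeR. Mrpl27 had 29.1, 29.8 and 27.5 CPM in intact BE with rapamycin against 33.5, 35.1 and 36.0 CPM with vehicle, and 38.3, 41.0 and 36.1 CPM in seBE with rapamycin against 35.5, 36.0 and 33.5 CPM with vehicle. These p-values do not show that the drug effects were alike in the constructs.

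With rapamycin in both, seBE cells again had more RNA of the members than intact BE cells. Of 77 members 16 passed, all higher, where 2.04% of all genes were higher and 2.66% lower. The median log2 fold change was 0.21, against 0.005 for all genes. Above 0 were 71 of 77 members, against 7601 of all 14985 genes. In the large subunit 13 of 50 were higher and in the small subunit 3 of 26. Of the members with a bacterial counterpart 10 of 46 were higher, and of the mitochondria-specific ones 6 of 30. Removing the transcript length trend left 13 higher and a median of 0.16, and the coding length trend 12 and a median of 0.17.

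Mrpl12 had 138, 141 and 132 CPM in seBE with rapamycin against 99.9, 107 and 101 CPM in intact BE with rapamycin, at 0.42 ± 0.077, adjusted p = 0.000909 by edgeR. Mrps7 had 66.8, 70.1 and 67.7 CPM against 46.9, 52.4 and 51.4 CPM, at 0.44 ± 0.086, adjusted p = 0.00159 by edgeR, and Mrpl28 had 67.5, 71.2 and 61.2 CPM against 42.7, 50.9 and 51.8 CPM, at 0.46 ± 0.092, adjusted p = 0.00214 by edgeR. In these 3 genes all seBE libraries stood above all intact BE libraries. Mrpl17, a large-subunit protein with a bacterial counterpart, had 80.5, 75.1 and 79.6 CPM against 58.4, 64.1 and 58.6 CPM, at 0.38 ± 0.081, adjusted p = 0.00445 by edgeR. Mrpl20, of the same kind, was higher at 0.35 ± 0.079, adjusted p = 0.00659, and Mrps26 at 0.46 ± 0.11, adjusted p = 0.00944, both by edgeR. Mrpl58 had 42.0, 43.0 and 40.0 CPM against 29.9, 33.6 and 33.2 CPM, at 0.37 ± 0.11, adjusted p = 0.0388 by edgeR.

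Mrpl12, Mrps7, Mrpl28 and Mrpl17 were called without each single library. Mrpl20 was lost without intact BE replicate 1 or seBE replicate 2, at adjusted p of 0.0659 and 0.0607. Mrps26 was lost without intact BE replicate 1 or 3 or seBE replicate 1, at 0.0856, 0.0712 and 0.0748. Mrpl58 was lost without intact BE replicate 1, 2 or 3, at 0.183, 0.0513 and 0.086, and without seBE replicate 1 or 2, at 0.0823 and 0.151. The count of higher members was 6 without intact BE replicate 1 or 3, 7 without seBE replicate 2 and 10 without seBE replicate 1. Also higher in seBE were Mrps15, Mrpl27, Mrpl38, Mrpl54, Mrpl49, Mrpl40, Mrpl18, Mrpl9 and Mrpl35.

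The 11 members followed for their roles, Mrpl12, Mrps12, Mrpl58, Mrps27, Mrpl3, Mrps16, Mrpl41, Mrps30, Mrps18a, Mrps18b and Mrps18c, passed in some comparisons and not in others. By edgeR 4 of them were lower in intact BE than in nCas9, where 9.83% of all genes were lower, and 3 were lower in intact BE than in the catalytic mutant, where 9.33% were. In seBE 2 were higher than in intact BE with vehicle, where 1.68% of all genes were higher, and 2 with rapamycin, where 2.04% were. In the mutant 1 was lower than in nCas9, where 2.06% were. Those that did not pass had log2 fold changes of -0.33 (Mrps12) to 0.12 (Mrpl3) for intact BE over nCas9, and of -0.41 (Mrpl41) to 0.19 (Mrpl12) for the mutant over nCas9. For rapamycin over vehicle the 11 lay between -0.28 (Mrps27) and 0.05 (Mrps18a) in intact BE and between -0.22 (Mrps18b) and -0.005 (Mrpl41) in seBE.

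Other genes of mitochondrial translation were read from lists kept beside the members. In intact BE over nCas9 their counts stand beside 9.83% lower and 13.1% higher among all genes, and over the catalytic mutant beside 9.33% and 11.6%. Mitoribosomal proteins under other names numbered 5, of which 2 fell in intact BE with vehicle over nCas9, Aurkaip1 at -0.42, adjusted p = 0.00041 and Gadd45gip1 at -0.32, adjusted p = 0.0338 by edgeR. Over the catalytic mutant 3 of the 5 fell, the third being Dap3 at -0.30, adjusted p = 0.00752, a GTP-binding small-subunit protein linked to cell death. Assembly factors numbered 30, of which 3 passed in intact BE over nCas9, all lower, with a median of -0.16. That count is near the share of all genes that were lower. Rmnd1 was lower at -0.71, adjusted p = 8.95e-05, followed by Mettl17 at -0.57, adjusted p = 0.0166 and Mtg2, a GTPase, at -0.37, adjusted p = 0.0394. Over the mutant 5 fell and 1, the GTPase Gtpbp10, rose at 0.60, adjusted p = 0.00894. Rmnd1 was the 1 assembly factor higher in seBE than in intact BE with rapamycin, at 0.52, adjusted p = 0.00997.

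Translation factors did not move one way. Of 16 tested, 3 rose and 3 fell in intact BE over nCas9 by edgeR. Slirp, an RNA-binding protein that stabilises mitochondrial messenger RNAs with Lrpprc, fell at -0.63, adjusted p = 7.13e-05, while Lrpprc rose at 0.31, adjusted p = 0.00557. The elongation factor Gfm1 rose at 0.43, adjusted p = 0.00102, and Guf1 fell at -0.38, adjusted p = 0.00422. Slirp was also lower in the catalytic mutant than in nCas9, at -0.68, adjusted p = 0.00061, and in seBE with vehicle, at -0.54, adjusted p = 0.00364, and Guf1 likewise at -0.48, adjusted p = 0.00464 and -0.42, adjusted p = 0.0107. Tufm, the mitochondrial elongation factor Tu, fell in intact BE over the mutant at -0.37, adjusted p = 0.00138. A list of mitochondrial transcription and RNA processing also holds Ssbp1 and Polg, which serve replication of mitochondrial DNA. Of its 18 tested genes 3 fell and 1 rose in intact BE over nCas9 by edgeR. Ssbp1 fell at -0.38, adjusted p = 0.00167, Polg at -0.27, adjusted p = 0.0195 and Fastkd5 at -0.51, adjusted p = 0.0301. Tfb2m rose at 0.29, adjusted p = 0.0486.

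Of 24 import genes 6 fell and 3 rose in intact BE over nCas9 by edgeR, where 9.83% of all genes fell and 13.1% rose, so the count that rose is near that share. Timm13 fell at -0.57, adjusted p = 0.00313 and Tomm7 at -0.36, adjusted p = 0.00404, while Pmpcb, a subunit of the peptidase that removes import signals, rose at 0.36, adjusted p = 0.00632. Timm13 was higher in seBE than in intact BE with vehicle, at 0.52, adjusted p = 0.0311, and with rapamycin, at 0.51, adjusted p = 0.0255. Of 10 regulators of mitochondrial biogenesis 2 rose and 1 fell, counts near the shares of all genes. The GABP subunits Gabpa and Gabpb2 rose at 0.55, adjusted p = 7.33e-05 and 0.50, adjusted p = 1.92e-05, and the nuclear receptor Esrra fell at -0.34, adjusted p = 0.0352. Over the catalytic mutant Gabpa and Gabpb2 rose at 0.47, adjusted p = 0.000681 and 0.40, adjusted p = 0.0004. Myc rose with rapamycin in intact BE, at 0.26, adjusted p = 0.0174. The ETS string that GABP can bind was in 9 of the 18 members with a window that fell in intact BE over nCas9, and in 26 of 69 members in all. A link between GABP and the level of the members was not tested.

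In the remaining comparisons fewer of these genes passed, and fewer of all genes did as well. For the mutant over nCas9, 2.06% of all genes were lower and 2.24% higher, and for seBE with vehicle over nCas9 1.93% and 2.64%. For seBE over intact BE, 1.68% were higher and 2.32% lower with vehicle, and 2.04% and 2.66% with rapamycin. For rapamycin in intact BE, 1.34% were lower and 1.98% higher. Between the catalytic mutant and nCas9, Chchd1 was lower at -0.36, adjusted p = 0.0196, the helicase Dhx30 higher at 0.31, adjusted p = 0.0118, Ssbp1 lower at -0.37, adjusted p = 0.0133 and Tomm7 lower at -0.42, adjusted p = 0.00687 by edgeR. seBE with vehicle over nCas9 had Rmnd1 lower at -0.42, adjusted p = 0.0448, Ssbp1 lower at -0.37, adjusted p = 0.0122 and Gabpa higher at 0.33, adjusted p = 0.0424. Gadd45gip1 was higher in seBE than in intact BE with vehicle, at 0.38, adjusted p = 0.0418, and Aurkaip1 with rapamycin, at 0.29, adjusted p = 0.0374. With rapamycin in intact BE, Pnpt1, an exoribonuclease of mitochondria, fell at -0.29, adjusted p = 0.0466.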

How the data were processed

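RNA of 18 libraries in 6 groups of 3 was sequenced. The deposited values are raw counts per gene, which the authors made on GRCm39 with fastp 1.0.1, STAR 2.7.1a, SAMtools 1.9 and featureCounts of Subread 2.0.3, per the submitters' processing notes. Not given in the sources used here are the annotation release, the strand setting and the treatment of reads that map to several genes. The 56748 gene identifiers were paired with symbols for 52073. Library totals were 13835979 to 23284932 counts.

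The counts were analysed with edgeR 4.0.16 in R 4.3.3, with TMM scaling, the filterByExpr filter and a robust quasi-likelihood test on 6 group means over all 18 libraries. Benjamini-Hochberg adjustment ran over the 14985 genes tested, with a threshold of 0.05. These genes held 99.9% of counts. CPM are counts scaled to depth with TMM, and a floor of 3 counts covers counting error only.

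Alternatives were DESeq2 1.42.0, other filters and scalings, thinning to equal depth, the compared libraries alone, leaving out each library, and removing each library's trend on length and GC content (splines with 4 degrees of freedom over genes at a log2 CPM of 3 or more). Transcript length and GC content, from GENCODE M21 on GRCm38, were at hand for 97.4% of tested genes. Coding length was at hand for 77.9% of tested genes, under the coverage such a check needs over all genes, but for all 78 members. Members and lists were chosen with earlier results of these data known. Named with values are up to 6 members with the smallest adjusted p in each direction, 11 members followed for their roles, and up to 3 genes of each other list, while a few further genes were named after their values were seen.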

Additional observations from a re-analysis of the deposited data

How the results depend on the processing

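Of 38 named calls, 26 were lost under at least 1 alternative, 19 of them without at least 1 library and 17 with the transcript length and GC trend removed; the cause was not tested beyond that. None of the named calls changed sign, while the members' median changed sign for the mutant over nCas9, at -0.045 to 0.01 without 1 library, and for seBE over nCas9, at 0.015 with the trend removed. For intact BE over nCas9, 0 members were higher without a filter and with upper-quartile scaling, 4 with the trend removed, with or without the replicate block, 2 with the coding length trend removed and 2 by DESeq2. For the catalytic mutant over nCas9, higher members numbered 2 with the trend removed, 3 with the trend and replicate block, 3 with the coding length trend removed and 2 by DESeq2. Lower members there numbered 8 with the replicate block, 1 with the trend removed, 2 with the trend and block, 2 with the coding length trend, 2 with the compared libraries alone and 9 by DESeq2. For intact BE over the mutant, 0 were higher with the coding length trend removed. For seBE over nCas9, 1 was higher with the trend removed, 2 with trend and block and 1 with the coding length trend, while 4 were lower with the block, 4 with trend and block and 4 by DESeq2. For seBE over intact BE with vehicle, 3, 2, 12 and 11 were higher with the trend removed, the coding length trend removed, the libraries alone and DESeq2. For rapamycin in intact BE, 1 was higher with trend and block, 1 with the coding length trend and 1 by DESeq2, and 2 and 3 were lower with the trend removed and with trend and block. For seBE over intact BE with rapamycin, 7 were higher with the libraries alone. No share of all genes called under the same setting is set beside these counts.

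Leaving out 1 library gave 0 to 2 higher and 14 to 23 lower members for intact BE over nCas9, 0 to 1 and 1 to 5 for the mutant over nCas9, 0 to 2 and 11 to 16 for intact BE over the mutant, and 0 to 4 lower for seBE over nCas9. It gave 0 to 5 higher for seBE over intact BE with vehicle, 0 to 1 lower for rapamycin in intact BE, and 6 to 15 higher for seBE over intact BE with rapamycin. Replicate numbers did not pair the libraries: correlations of same-numbered deviations ran from -0.069 to 0.115, with a median of 0.017.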
